A study of Mus musculus with 6 samples.

Results

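Fibroblast growth factors (FGFs) are secreted signals that bind receptor tyrosine kinases, the FGF receptors, together with heparan sulfate chains on the cell surface. In the mammary gland Fgf7 and Fgf10 are made by the stroma and act on the epithelium through an epithelial splice form of Fgfr2, while Fgf2 binds several receptors, Fgfr1 among them. A bound receptor signals through the docking protein Frs2 to the Ras-ERK cascade, whose targets include the feedback inhibitors of the Sprouty family. The endocrine FGFs bind heparan sulfate weakly and need a Klotho protein as co-receptor.

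The genes described here are the FGF ligands (Fgf1 to Fgf23 in mouse nomenclature), the receptors Fgfr1 to Fgfr4 and Fgfrl1, and their cofactors Fgfbp1, Fgfbp3, Kl, Klb, Frs2, Frs3, Flrt1, Flrt2 and Flrt3. They were chosen by symbol, and 36 of the 52325 genes in the table matched, among them 22 ligands. RNA was sequenced from cells sorted out of breast tumours of C57BL/6 mice with the genotype C3-T; Elf5-GFP, in which GFP reports Elf5. C3-T is a name used for mice that express the SV40 T antigen in the mammary epithelium. The 2 Elf5-positive libraries hold GFP-positive cells and the 4 Elf5-negative libraries hold GFP-negative cells, both from digests sorted with CD45, CD31 and TER119 antibodies, so all libraries share the T antigen background, the reporter and that sort. The sources used here do not give the sex, age or treatment of the mice, nor whether animals were pooled. Elf5 is an ETS-family transcription factor of mammary luminal progenitor and alveolar cells.

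Library totals were 45145621 and 49563376 counts in Elf5-positive libraries 1 and 2, and 9106660 (library 4) to 53694884 counts in the Elf5-negative libraries. Elf5 itself, whose reporter set the sort, was at 77.7 and 137.0 CPM (counts scaled to library size with TMM factors) in the Elf5-positive libraries and at 6.93 to 24.7 CPM in the Elf5-negative libraries. Titles carry a number and the code T1 or T2, neither defined. Elf5-positive library 1 shares its number with Elf5-negative libraries 1 and 2, and Elf5-positive library 2 shares the other number with Elf5-negative libraries 3 and 4. Both Elf5-positive libraries and Elf5-negative libraries 2 and 4 are coded T2. The labels do not tie any library to an animal of its own, so the spread behind each p-value is that among these 6 libraries and may be technical.

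Of the 36 genes, 29 had enough counts to be tested, 6 of them were lower and 0 were higher in the Elf5-positive libraries (edgeR's quasi-likelihood test, with p adjusted by Benjamini-Hochberg over all 20684 genes tested and called below 0.05). Of all genes tested, 3.79% were called lower and 0.585% higher. At an unadjusted p under 0.05, 9 of the 29 were lower, against 11.7% of all genes tested, and 1 was higher, against 5.2%. DESeq2 called 8 lower, adding Fgf11 and Fgf16, limma-voom called the same number as edgeR, 6, and both called 0 higher. The 6 genes were the ligands Fgf2, Fgf7, Fgf10, Fgf18 and Fgf23 and the FGF receptor partner Flrt2. The log2 fold change was below 0 in 24 of the 29, against 46.7% of all genes tested. No receptor, FGF-binding protein or docking adaptor passed. The groups did not overlap in 8 of the 29 genes with Elf5-positive lower, against 14.8% of all genes tested, and in 1 with Elf5-positive higher, against 10.9%. The filter on low counts asks for about 0.222 CPM in at least 2 libraries. Fgf14, Fgf16 and Fgf23 had no Elf5-positive library over it, so these genes could enter the test only through the Elf5-negative libraries.

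Regions before a RefSeq transcription start of Fgf2, Fgf7, Fgf10 and Fgfrl1 are shown because Elf5 is an ETS factor. For Fgf2, Fgf10 and Fgfrl1 the region lies inside the gene span printed below from GENCODE, after the start of that span. The region of Fgf7 ends where its span begins. Each run is the 250 bases before the RefSeq transcription start (GRCm38.p6), 5′ to 3′ on the gene's strand, and capitals mark the ETS core GGAA or its reverse complement TTCC. The first 3 belong to ligands that fell, and the last to Fgfrl1, which did not pass but was higher in both Elf5-positive libraries than in every Elf5-negative library.
Fgf2 (chr3:37348403-37348652, + strand): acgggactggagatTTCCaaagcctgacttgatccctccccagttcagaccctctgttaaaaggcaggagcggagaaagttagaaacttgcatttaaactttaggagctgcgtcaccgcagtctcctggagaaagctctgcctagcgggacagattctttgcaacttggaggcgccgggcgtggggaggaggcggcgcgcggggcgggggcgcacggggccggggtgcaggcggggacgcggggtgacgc
Fgf7 (chr2:126034408-126034657, + strand): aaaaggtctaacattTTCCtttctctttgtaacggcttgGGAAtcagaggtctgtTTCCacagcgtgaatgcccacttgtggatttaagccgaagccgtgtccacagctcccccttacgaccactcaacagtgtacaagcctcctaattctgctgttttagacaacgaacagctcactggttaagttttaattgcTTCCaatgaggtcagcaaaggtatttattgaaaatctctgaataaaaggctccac
Fgf10 (chr13:118714449-118714698, + strand): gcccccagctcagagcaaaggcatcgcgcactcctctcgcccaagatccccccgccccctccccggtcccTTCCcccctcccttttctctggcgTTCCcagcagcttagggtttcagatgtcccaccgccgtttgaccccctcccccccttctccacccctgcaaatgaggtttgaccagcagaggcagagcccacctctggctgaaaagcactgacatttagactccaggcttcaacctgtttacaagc
Fgfrl1 (chr5:108693979-108694228, + strand): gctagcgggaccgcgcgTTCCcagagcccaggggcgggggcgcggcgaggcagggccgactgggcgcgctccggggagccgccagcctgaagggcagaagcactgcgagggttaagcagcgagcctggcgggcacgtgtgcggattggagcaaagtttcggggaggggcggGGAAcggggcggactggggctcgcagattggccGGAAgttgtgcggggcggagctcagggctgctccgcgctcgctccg
The ETS core was found 1 time in the Fgf2 window, 4 times in that of Fgf7, 2 times in that of Fgf10 and 3 times in that of Fgfrl1. In the windows of Fgf18, Fgf23 and Flrt2, which also fell and are not shown, it was found 1, 4 and 5 times. The core is a short motif that 93.4% of 32851 such mouse windows hold on either strand. The longer ETS motif GGAAGT, which contains the core, was found on either strand in 19.7% of all windows. It was in the Fgfrl1 window and in none of the windows of Fgf2, Fgf7, Fgf10, Fgf18, Fgf23 and Flrt2. CAGGTG, an E-box bound by Zeb and Snail repressors, was in none of these 7 windows and in 17.2% of all windows. These 7 genes were picked by their results, and no link between a motif and the direction of a gene was tested. A match of letters is not a binding site, and a missing match says nothing of sequence outside the window.

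Fgf2 (ENSMUSG00000037225.13, chromosome 3, 37348346 to 37410108, GRCm38), a ligand without a classical signal peptide that binds several FGF receptors, was at 6.43 and 5.75 CPM in Elf5-positive libraries 1 and 2. It was at 43.4, 52.1, 54.6 and 56.2 CPM in Elf5-negative libraries 1 to 4. The groups lay far apart and the Elf5-negative libraries differed little among themselves, with means of 6.09 ± 0.485 CPM (SD, n = 2) and 51.6 ± 5.71 CPM (SD, n = 4). The log2 fold change was -3.08 (SE 0.26, edgeR adjusted p = 0.010), and Fgf2 ranked 2 by p among all genes tested. Its relative Fgf1, a ligand of all FGF receptors, was at 0.540 and 0.542 CPM in the Elf5-positive libraries and at 0.252 to 2.32 CPM in the Elf5-negative libraries, where the groups overlapped.

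Fgf2 shares 640 exon bases with Nudt6, a gene transcribed from the opposite strand, which was looked up after the value of Fgf2 was seen. Nudt6 was at 3.67 and 7.78 CPM in Elf5-positive libraries 1 and 2, and at 1.90, 1.95, 0.936 and 2.37 CPM in Elf5-negative libraries 1 to 4. It was thus higher in both Elf5-positive libraries than in every Elf5-negative library, though it did not pass (log2 fold change 1.69, SE 0.51, edgeR adjusted p = 0.119). The sources used here do not say whether the libraries kept strand, so reads in the shared bases may have been divided between Fgf2 and Nudt6 by the counting model.

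Fgf7 (ENSMUSG00000027208.14, chromosome 2, 126034658 to 126091185), keratinocyte growth factor, was at 0.472 and 0.561 CPM in the Elf5-positive libraries, which is 21 and 29 counts. In Elf5-negative libraries 1 to 4 its level was 21.4, 8.23, 26.1 and 11.5 CPM. Its log2 fold change was -5.02 (SE 0.65, edgeR adjusted p = 0.0121). Fgf10 (ENSMUSG00000021732.14, chromosome 13, 118669791 to 118792115), needed for the mammary bud to form in mouse embryos, was at 0.405 and 0.290 CPM in the Elf5-positive libraries and at 16.1, 6.93, 15.8 and 8.64 CPM in Elf5-negative libraries 1 to 4. Its log2 fold change was -5.09 (SE 0.60, edgeR adjusted p = 0.0112). Neither gene's groups overlapped, and in both the 2 T1 libraries (Elf5-negative 1 and 3) were above the 2 T2 libraries of that group. The other members of their subfamily stayed low, with Fgf22 at most at 0.411 CPM in any library and Fgf3 at most at 22 counts.

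Fgf18 (ENSMUSG00000057967.12, chromosome 11, 33117430 to 33147400), of the FGF8 subfamily, was at 0.090 and 0.232 CPM in the Elf5-positive libraries. It was at 4.71, 2.65, 3.74 and 2.88 CPM in Elf5-negative libraries 1 to 4, with a log2 fold change of -4.40 (SE 0.65, edgeR adjusted p = 0.0137). The Elf5-positive values rest on 4 and 12 counts. The log2 fold change was -3.90 without Elf5-positive library 1 and -5.23 without Elf5-positive library 2. Fgf23 (ENSMUSG00000000182.9, chromosome 6, 127072902 to 127081408), the bone hormone that controls phosphate, had 2 and 0 counts in the Elf5-positive libraries and 202, 118, 271 and 21 counts in Elf5-negative libraries 1 to 4. Its levels were 0.0450 and 0 CPM in Elf5-positive against 4.41, 3.72, 5.51 and 2.16 CPM in Elf5-negative libraries, and the log2 fold change was -7.34 (SE 1.02, edgeR adjusted p = 0.0132). With so few counts it moved to -10.23 without Elf5-positive library 1 and to -6.37 without Elf5-positive library 2. The pooled ratio, Elf5-negative over Elf5-positive, was 215.6 with an exact 95% interval of 59.4 to 1784, which covers counting error only. Fgf6, which ends 44.7 kb before Fgf23 on chromosome 6, had 0 counts in all 6 libraries, which allows up to 3 counts or 0.0580 to 0.308 CPM per library. Fgf3, Fgf4 and Fgf15 lie within 62.9 kb on chromosome 7 and had at most 38 counts in any library.

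**Figure D1:**
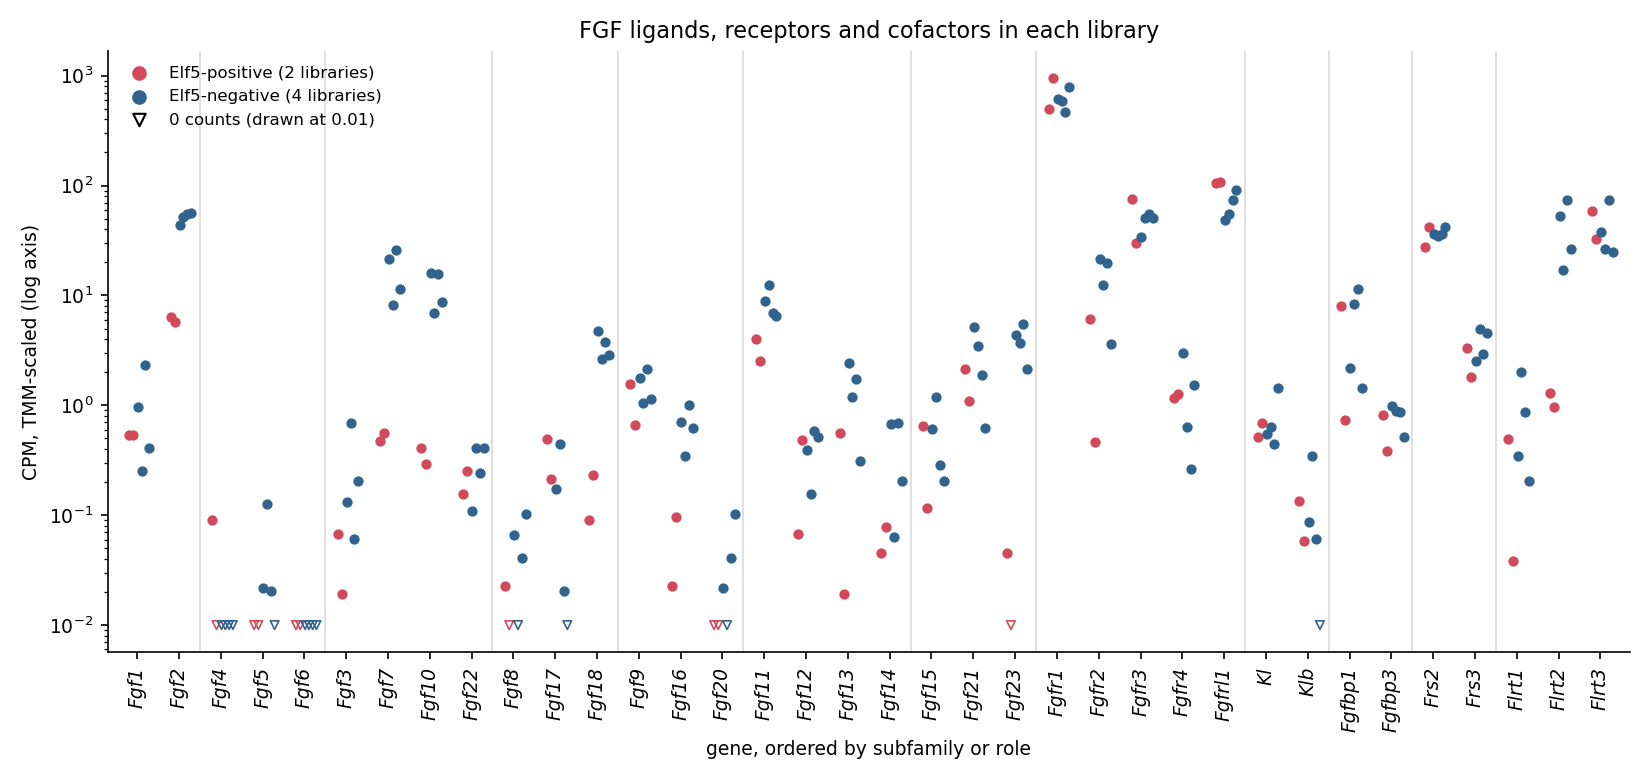
CPM (TMM-scaled, log axis) of each of the 36 genes in each library, ordered by subfamily or role, with the 2 Elf5-positive libraries left of the 4 Elf5-negative libraries; each point is 1 library, and libraries with 0 counts are drawn as open triangles at 0.01. Fgf2, Fgf7, Fgf10, Fgf18, Fgf23 and Flrt2 separate the groups downwards in the Elf5-positive libraries, while Fgfr1 is the highest gene in both groups.

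Other ligands did not pass. Fgf11, of the FGF homologous factors that stay inside the cell and act on sodium channels, was at 3.98 and 2.54 CPM in the Elf5-positive libraries and at 8.82, 12.3, 6.98 and 6.48 CPM in Elf5-negative libraries 1 to 4. These groups did not overlap, but the log2 fold change of -1.41 (SE 0.44) had an adjusted p of 0.131 in edgeR. DESeq2 called it lower (log2 fold change -1.40, adjusted p = 0.0131). Fgf16 did not overlap either, with 0.0225 and 0.0968 CPM in the Elf5-positive libraries against 0.347 to 1.02 CPM in the Elf5-negative libraries (adjusted p = 0.0691, edgeR), and DESeq2 called it lower too. Fgf9, Fgf21, Fgf12, Fgf13, Fgf14, Fgf15, Fgf17, Fgf22 and Fgf1 overlapped between the groups. Fgf21, a metabolic hormone of liver and fat, reached 5.13 CPM in Elf5-negative library 1, and Fgf9 ranged from 0.658 to 2.16 CPM over all libraries. The 7 untested genes Fgf3, Fgf4, Fgf5, Fgf6, Fgf8, Fgf20 and Klb had at most 22 counts, or 0.693 CPM, in any library.

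None of the 5 receptors passed. Fgfr1 (ENSMUSG00000031565.18, chromosome 8, 25513654 to 25575718) was at 497.6 and 950.6 CPM in the Elf5-positive libraries and at 619.9, 591.9, 465.9 and 781.9 CPM in Elf5-negative libraries 1 to 4. The Elf5-positive libraries held the highest value and the second lowest, and the log2 fold change was 0.24 (SE 0.34, edgeR adjusted p = 0.806). Fgfr3 was at 74.8 and 30.2 CPM in the Elf5-positive libraries and at 34.2, 50.7, 55.4 and 50.6 CPM in the Elf5-negative libraries, so that the Elf5-positive libraries were the highest and the lowest of the 6 (log2 fold change 0.14, SE 0.37). Fgfr4 was at 1.17 and 1.28 CPM in the Elf5-positive libraries and at 2.97, 0.630, 0.264 and 1.54 CPM in Elf5-negative libraries 1 to 4.

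Fgfr2 was the receptor with the widest spread. It was at 6.07 and 0.465 CPM in Elf5-positive libraries 1 and 2, and at 21.3, 12.4, 19.7 and 3.6 CPM in Elf5-negative libraries 1 to 4. The groups overlapped, because Elf5-negative library 4 lay below Elf5-positive library 1. The log2 fold change was -2.13 (SE 1.05, edgeR adjusted p = 0.367). It was -4.94 without Elf5-positive library 1 (adjusted p = 0.0568) and -1.24 without Elf5-positive library 2 (adjusted p = 0.524). Among the T2 libraries that share a number, Elf5-positive library 1 was 2.04-fold lower than Elf5-negative library 2, and Elf5-positive library 2 was 7.75-fold lower than Elf5-negative library 4. Counts are per gene, so the epithelial and mesenchymal splice forms of Fgfr2 were not told apart, and 314 of its exon bases are shared with Ctbp2 on the same strand.

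Fgfrl1 (ENSMUSG00000008090.14, chromosome 5, 108692382 to 108706924) encodes an FGF receptor that lacks the kinase domain. It was at 105.2 and 108.7 CPM in the Elf5-positive libraries and at 48.9, 54.6, 73.8 and 90.7 CPM in Elf5-negative libraries 1 to 4. This was the only tested gene of the 29 whose groups separated upwards, and the difference did not pass (log2 fold change 0.68, SE 0.28, edgeR adjusted p = 0.270; -0.87 when scaled to pan-epithelial genes).

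Levels of different receptors were compared per kilobase of merged exons. On this scale Fgfr1 was at 50.4 and 96.3 CPM per kb in the Elf5-positive libraries and at 62.8, 59.9, 47.2 and 79.2 CPM per kb in Elf5-negative libraries 1 to 4. It made up 81.6% and 95.4% of the summed level of Fgfr1 to Fgfr4 in the Elf5-positive libraries, and 82.9% to 91.0% in the Elf5-negative libraries. Fgfr3 came next with 16.9% and 4.18% in the Elf5-positive libraries and 6.79% to 13.6% in the Elf5-negative libraries. Fgfr2 held 0.952% and 0.0446% in the Elf5-positive libraries and 0.40% to 3.35% in the Elf5-negative libraries. The order Fgfr1, Fgfr3, Fgfr2 held in all 6 libraries, and Fgfr4 lay above Fgfr2 in Elf5-positive library 2 and in Elf5-negative library 4. Merged exon length is longer than most single transcripts, so these are relative levels only.

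**Figure D2:**
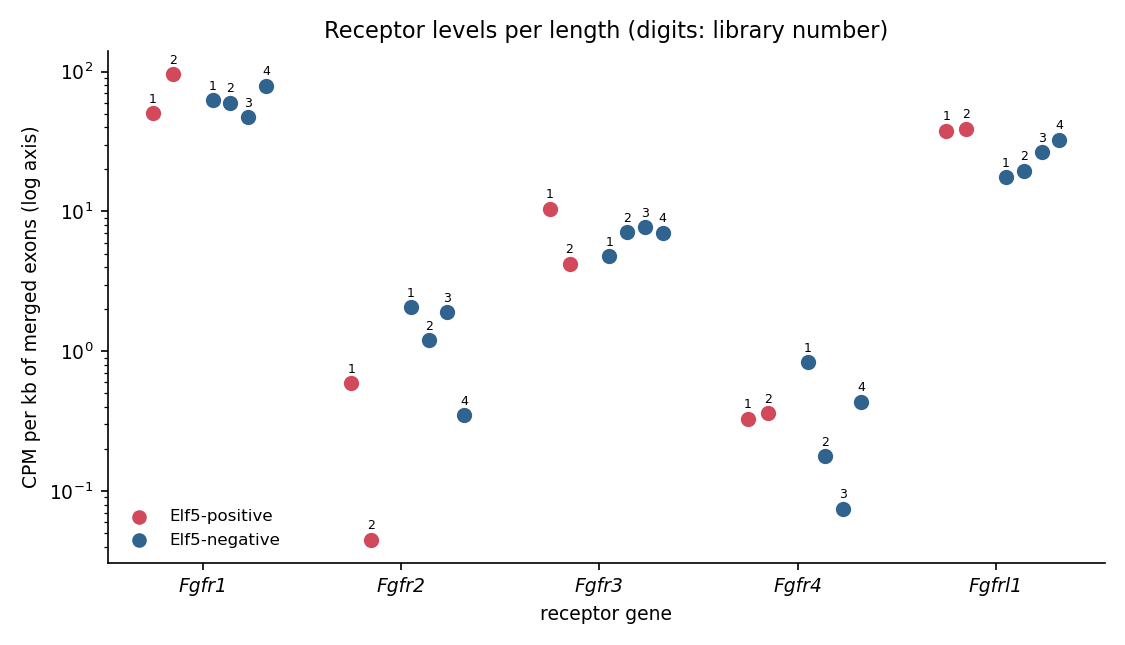
Receptor levels in CPM per kb of merged exons (log axis), with Elf5-positive libraries left of Elf5-negative libraries for each receptor; each point is 1 library and the digit its number. Fgfr1 lies between 47.2 and 96.3 CPM per kb in all 6 libraries, and Fgfr2 is lowest in Elf5-positive library 2.

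Summed over the 18 FGFs outside the intracellular FGF11 subfamily, the ligand level was 4.65 and 3.02 CPM per kb in the Elf5-positive libraries and 29.7, 21.3, 29.5 and 19.1 CPM per kb in Elf5-negative libraries 1 to 4. Fgf21 was the largest part of this sum in both Elf5-positive libraries, with 48.8% and 38.4%, and made up 3.39% to 18.1% in the Elf5-negative libraries. Fgf7 and Fgf10 together made up 5.02% and 7.80% of this sum in the Elf5-positive libraries and 19% to 38.9% in the Elf5-negative libraries. Fgf2 made up 20.4% and 28.0% in the Elf5-positive libraries and 21.5% to 43.3% in the Elf5-negative libraries. The order of the shares depends on the exon lengths used, 0.951 kb for Fgf21 and 6.782 kb for Fgf2. Before division by length Fgf2 was above Fgf21 in both Elf5-positive libraries, at 6.43 and 5.75 CPM against 2.16 and 1.10 CPM. The shares are a description of the libraries and were not tested.

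Of the cofactors only Flrt2 passed. Flrt2 (ENSMUSG00000047414.6, chromosome 12, 95692226 to 95785215), a membrane protein with leucine-rich repeats that binds Unc5 receptors and latrophilins and can associate with FGF receptors, was at 1.30 and 0.968 CPM in the Elf5-positive libraries. It was at 53.0, 17, 73.8 and 26.3 CPM in Elf5-negative libraries 1 to 4, again with both T1 libraries above both T2 libraries. The log2 fold change was -5.23 (SE 0.74, edgeR adjusted p = 0.0132). Its relative Flrt3 was at 59.3 and 32.8 CPM in the Elf5-positive libraries and at 37.5, 26.7, 73.8 and 24.99 CPM in the Elf5-negative libraries, with overlapping groups (log2 fold change 0.17, SE 0.47). Flrt1 was at most at 2.02 CPM in any library.

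Frs2, the adaptor that links activated FGF receptors to Grb2 and Ptpn11, was at 27.5 and 41.8 CPM in the Elf5-positive libraries and at 36.0, 34.9, 36.3 and 42.2 CPM in the Elf5-negative libraries (log2 fold change -0.11, SE 0.24). Frs3, its relative, ranged from 1.80 to 4.98 CPM over all libraries. Fgfbp1, a secreted carrier that releases FGFs from the matrix, was at 8.10 and 0.735 CPM in Elf5-positive libraries 1 and 2, and at 2.20, 8.45, 11.5 and 1.44 CPM in the Elf5-negative libraries. It varied more within each group than between them (log2 fold change -0.43, SE 1.06). Fgfbp3 stayed under 1 CPM in every library. Kl, the co-receptor that Fgf23 uses, was at 0.517 and 0.697 CPM in the Elf5-positive libraries and at 0.448 to 1.44 CPM in the Elf5-negative libraries, and Klb had at most 11 counts.

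**Figure D3:**
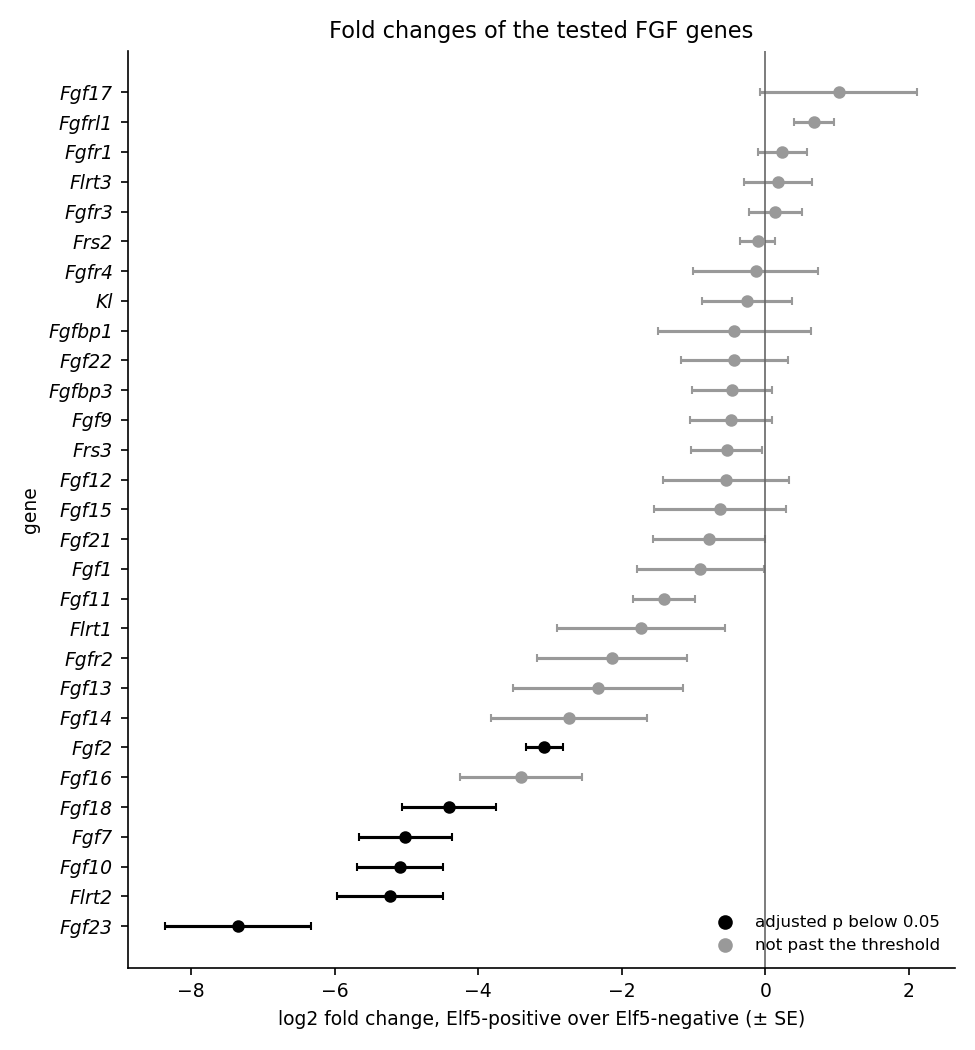
Log2 fold changes, Elf5-positive over Elf5-negative, of the 29 tested genes with their standard errors; black points passed at an adjusted p below 0.05 (edgeR) and grey points did not. The 6 genes that passed lie between -7.34 (Fgf23) and -3.08 (Fgf2), while the 5 receptors lie between -2.13 (Fgfr2) and 0.68 (Fgfrl1).

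Most fibroblast markers were lower in the Elf5-positive libraries, as were the FGF genes that were called. Of 14 fibroblast markers 12 were lower in the Elf5-positive libraries, and their summed level was 1144 to 1485 CPM there against 18714 to 53082 CPM in the Elf5-negative libraries, with no marker at 0. Of 8 pericyte and smooth muscle markers 4 were lower (summed 99.8 to 178.9 CPM in Elf5-positive against 439.4 to 936.8 CPM in Elf5-negative libraries). Pan-epithelial markers were higher for 12 of 18, with summed levels of 6158 to 8437 CPM in Elf5-positive against 2097 to 3592 CPM in Elf5-negative libraries. Endothelial markers were lower for 3 of 10, with sums of 22.9 to 46.0 CPM in Elf5-positive against 68.5 to 150.3 CPM in Elf5-negative libraries. Of 10 basal and myoepithelial markers 4 were lower, with overlapping sums of 918.0 to 1392 CPM in Elf5-positive against 974.8 to 1653 CPM in Elf5-negative libraries. Skeletal muscle markers summed to 3.64 to 4.14 CPM in Elf5-positive against 2.95 to 249.0 CPM in Elf5-negative libraries, with Myh4, Myod1 and Pax7 at 0 in some libraries and 0 of 8 tested genes called. For leukocytes, 0 of 10 markers were called, with sums of 53.1 to 146.9 CPM in Elf5-positive against 61.0 to 367.7 CPM in Elf5-negative libraries. Adipocyte sums were 4.55 to 19 CPM in Elf5-positive against 14.6 to 76.6 CPM in Elf5-negative libraries with 0 of 5 tested genes called, and on the list of Schwann cells and nerve 1 of 6 was higher and 1 lower, with sums of 551.8 to 691.1 CPM in Elf5-positive against 154.6 to 271.4 CPM in Elf5-negative libraries. The part of these cell types in the FGF results was not tested, and in bulk libraries fewer cells of a type and less RNA per cell cannot be told apart.

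Among defining markers, Col1a1 was at 440.9 and 151.7 CPM in Elf5-positive libraries 1 and 2 and at 4470 to 11394 CPM in the Elf5-negative libraries, and Pdgfra at 40.7 and 176.9 CPM in Elf5-positive against 176.2 to 366.2 CPM in Elf5-negative libraries. The pericyte gene Rgs5 was at 7.92 and 4.36 CPM in Elf5-positive against 125.9 to 394.9 CPM in Elf5-negative libraries, and the basal keratin Krt5 at 3.96 and 1.37 CPM in Elf5-positive against 32.2 to 73.0 CPM in Elf5-negative libraries. Other genes of the basal list, picked after their values were seen, lay the other way without passing, with Krt14 at 562.0 and 532.9 CPM in Elf5-positive against 287.8 to 490.2 CPM in Elf5-negative libraries and Lgals7 at 314.4 and 182.1 CPM in Elf5-positive against 107.9 to 147.7 CPM in Elf5-negative libraries. Epcam, of epithelial cells, was at 1372 and 1483 CPM in the Elf5-positive libraries and at 382.4 to 702.9 CPM in the Elf5-negative libraries. Pecam1 and Ptprc, which encode the gated antigens CD31 and CD45, were at 10.6 and 3.08 CPM and at 3.24 and 6.02 CPM in the Elf5-positive libraries, against 4.42 to 19.1 CPM and 3.97 to 14.6 CPM in the Elf5-negative libraries.

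The 6 genes were then set beside 2 stromal genes in each library, a step chosen after the values were seen. The first was Dcn (decorin), a matrix proteoglycan gene of fibroblasts. For every 100 Dcn counts, Fgf7 had 2.09 and 3.19 counts in Elf5-positive libraries 1 and 2 and 1.19, 1.42, 1.12 and 1.66 counts in Elf5-negative libraries 1 to 4. Fgf10 had 1.79 and 1.65 counts in Elf5-positive against 0.898, 1.19, 0.677 and 1.24 counts in Elf5-negative libraries. Flrt2 had 5.78 and 5.49 counts in Elf5-positive against 2.96, 2.92, 3.16 and 3.79 counts in Elf5-negative libraries. In these 3 genes the ratios to Dcn were higher in both Elf5-positive libraries than in every Elf5-negative library, while their levels were far lower. The Elf5-positive ratios rest on 21 and 29 counts for Fgf7, 18 and 15 for Fgf10, and 58 and 50 for Flrt2. The part of counting error in this order was not tested. Fgf18, at 0.399 and 1.32 counts in Elf5-positive against 0.160 to 0.456 counts in Elf5-negative libraries, and Fgf23, at 0.199 and 0 counts in Elf5-positive against 0.236 to 0.640 counts in Elf5-negative libraries, rest on few counts in the Elf5-positive libraries. The second was Pdgfrb, the PDGF receptor of fibroblasts and pericytes, and with it the order differed. Per 100 Pdgfrb counts Fgf7 had 2.18 and 5.48 counts in the Elf5-positive libraries and 6.74, 2.30, 7.34 and 6.32 counts in Elf5-negative libraries 1 to 4, and Fgf10 had 1.87 and 2.84 counts in Elf5-positive against 5.08, 1.94, 4.44 and 4.74 counts in Elf5-negative libraries. Flrt2 had 6.02 and 9.45 counts per 100 Pdgfrb counts against 16.7, 4.75, 20.7 and 14.4 counts. The groups overlapped in these 3 genes, so the order of their ratios depended on the stromal gene taken. Per 100 Pdgfrb counts Fgf18 had 0.415 and 2.27 counts in Elf5-positive against 0.742 to 1.58 counts in Elf5-negative libraries. On the same scale Fgf23 had 0.208 and 0 counts in Elf5-positive against 1.04 to 1.55 counts in Elf5-negative libraries. Its ratio was lower in both Elf5-positive libraries with either stromal gene, but on only 2 and 0 counts of Fgf23 there. With Dcn the margin was small, 0.199 in Elf5-positive library 1 against 0.236 at the lowest in the Elf5-negative libraries.

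Fgf2 had 28.5 and 32.6 counts per 100 Dcn counts in the Elf5-positive libraries and 2.42, 8.97, 2.34 and 8.07 counts in Elf5-negative libraries 1 to 4. Per 100 Pdgfrb counts it had 29.7 and 56.1 counts in Elf5-positive against 13.7, 14.6, 15.3 and 30.8 counts in Elf5-negative libraries, where the groups overlapped. Dcn itself was at 22.6 and 17.6 CPM in the Elf5-positive libraries, and at 1793, 581.2, 2338 and 695.5 CPM in Elf5-negative libraries 1 to 4. Fgf7, Fgf10, Flrt2 and Dcn were all highest in the T1 libraries, whereas Fgf2 was lowest in a T1 library (Elf5-negative 1) among the Elf5-negative libraries. Within the T2 libraries of the same number, Fgf2 was 8.10-fold and 9.77-fold lower in the Elf5-positive library, Fgf7 17.4-fold and 20.5-fold lower, Fgf10 17.1-fold and 29.8-fold lower, and Flrt2 13.0-fold and 27.2-fold lower.

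**Figure D4:**
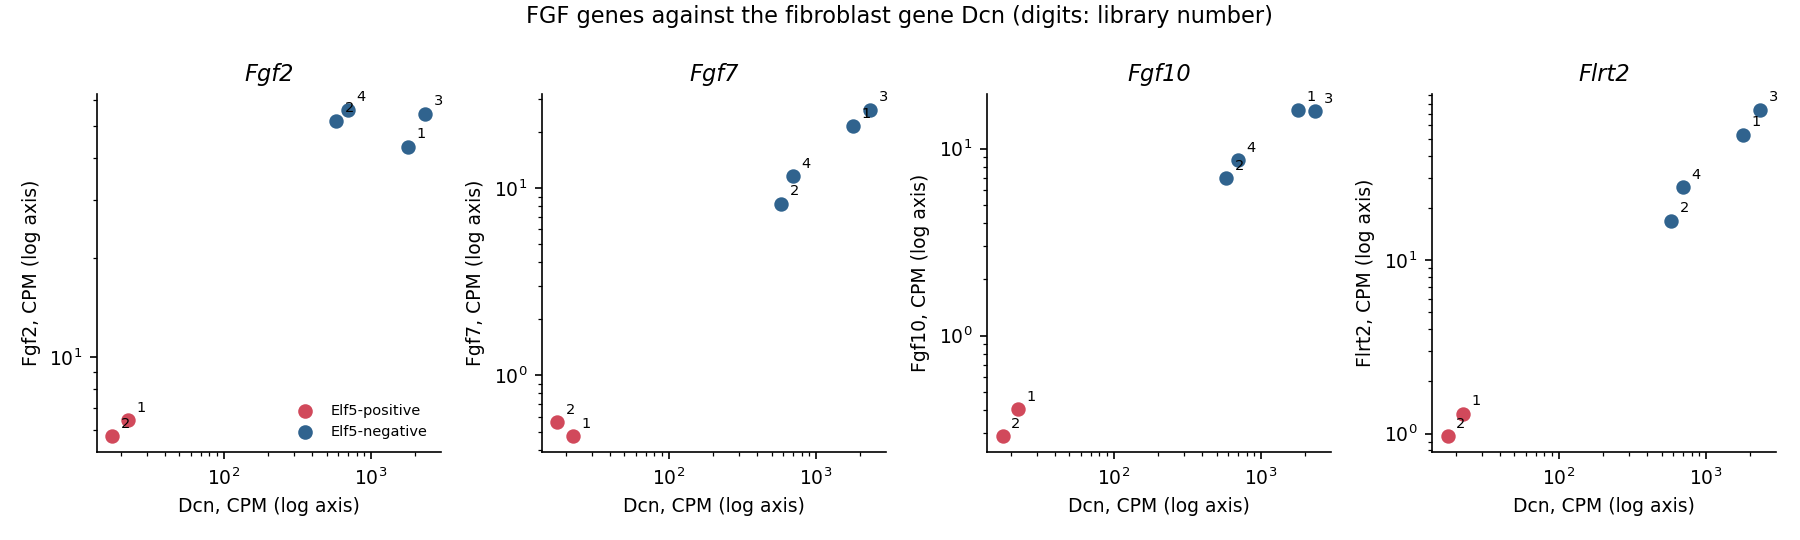
CPM of Fgf2, Fgf7, Fgf10 and Flrt2 against CPM of the fibroblast gene Dcn (both log axes); each point is 1 library and the digit its number. Fgf7, Fgf10 and Flrt2 are ordered like Dcn between the T1 (1 and 3) and T2 (2 and 4) Elf5-negative libraries, whereas Fgf2 stays between 43.4 and 56.2 CPM in all 4.

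The calls rest on few libraries. With the 4 T2 libraries alone, edgeR called 0 of the 6 genes and 0 of all genes (adjusted p of the 6 from 0.0821 to 0.157), although their log2 fold changes were -6.89 to -3.15. That fit ignores the title number. With the number as a block in the same 4 libraries, all 6 passed (edgeR adjusted p 0.00343 to 0.0151), though what the number stands for is not defined. Without Elf5-negative libraries 1 and 2, which hold the most skeletal muscle RNA, only Fgf2 and Flrt2 of the 6 passed, while Fgf7 (-5.19), Fgf10 (-5.13), Fgf18 (-4.32) and Fgf23 (-7.32) kept log2 fold changes about as large as with all libraries, and without Elf5-positive library 2 Flrt2 no longer passed (log2 fold change -5.03, adjusted p = 0.0533).

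Other genes of the FGF pathway were grouped into 7 lists by role, of which 83 genes were tested. All genes tested had a median log2 fold change of 0.05, with 3.79% called lower and 0.585% called higher. Of 12 docking and adaptor proteins, Frs2 and Frs3 among them, 0 passed (median -0.14), as of 13 genes of the Ras-ERK cascade (median 0.11).

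Of 15 tested feedback regulators and targets 0 passed, with a median log2 fold change of -0.08. Dusp6, a phosphatase that inactivates ERK and is itself induced by it, was at 518.3 and 1024 CPM in the Elf5-positive libraries and at 324.7, 409.7, 482.1 and 710.3 CPM in Elf5-negative libraries 1 to 4 (log2 fold change 0.68, SE 0.39). Spry2, a Sprouty feedback inhibitor, was at 147.9 and 154.6 CPM in Elf5-positive against 85.1 to 106.4 CPM in Elf5-negative libraries (0.67, SE 0.20, edgeR adjusted p = 0.122), so that its groups did not overlap. Spry4 lay the other way, with 10.9 and 22.2 CPM in the Elf5-positive libraries against 25.3 to 32.1 CPM in the Elf5-negative libraries (-0.76, SE 0.33). Spry1 had a log2 fold change of -0.19 (SE 0.38). The inhibitors of smallest p on the list, picked after their values were seen, did not overlap and were lower in the Elf5-positive libraries without passing, Spred3 with a log2 fold change of -1.78 (SE 0.46, edgeR adjusted p = 0.0770) and Il17rd with -1.49 (SE 0.42, adjusted p = 0.101). Of the PEA3 factors, ETS-family targets of FGF signalling, Etv5 was at 106.0 and 310.4 CPM in the Elf5-positive libraries against 67.4 to 130.7 CPM in the Elf5-negative libraries (1.16, SE 0.42, adjusted p = 0.206; 0.18 without Elf5-positive library 2), and Etv4 had a log2 fold change of 0.02 (SE 0.30).

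Of the 83 tested pathway genes 6 were lower, against 3.79% of all genes tested. Heparan sulfate genes, on lists of 11 and 18 tested genes, held 4 of these 6. Of 11 tested core proteins 3 were lower (median -0.43). Gpc3, a glypican, was at 4.3 and 2.44 CPM in the Elf5-positive libraries and at 85.8, 59.9, 140.7 and 27.3 CPM in Elf5-negative libraries 1 to 4 (log2 fold change -4.54, SE 0.73). Sdc2, a syndecan, was at 19.7 and 51.3 CPM in Elf5-positive against 208.4 to 298.2 CPM in Elf5-negative libraries (-2.86, SE 0.44), and Hspg2, the basement membrane proteoglycan perlecan, at 248.0 and 114.9 CPM in Elf5-positive against 505.1 to 691.9 CPM in Elf5-negative libraries (-1.75, SE 0.37). Of 18 tested genes that make or edit heparan sulfate 1 was lower (median -0.50), against 3.79% of all genes tested. That gene was Sulf1, an extracellular sulfatase that removes sulfate groups needed for FGF2 signalling, with 3.71 and 2.42 CPM in Elf5-positive against 36.2 to 146.1 CPM in Elf5-negative libraries (-4.64, SE 0.67). Hspg2 lost its call without Elf5-positive library 2 and without Elf5-negative library 1, 2 or 3 (edgeR adjusted p 0.0801 to 0.149). Gpc3 lost it without Elf5-positive library 2 (0.0736) and without Elf5-negative library 1 (0.0578), Sdc2 without Elf5-negative library 1 (0.0535), and Sulf1 without Elf5-positive library 2 (0.0563). The log2 fold change of Sdc2 was -3.71 without Elf5-positive library 2, and that of Hspg2 was -2.41 without Elf5-positive library 1.

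Of 5 splicing regulators 2 were higher (median 0.14), against 0.585% of all genes tested. Esrp1 and Esrp2, which direct the epithelial splice form of Fgfr2, were at 240.3 and 232.3 CPM and at 66.8 and 58.8 CPM in the Elf5-positive libraries, against 66.9 to 116.1 CPM and 12.4 to 23.6 CPM in the Elf5-negative libraries. Their log2 fold changes were 1.39 (SE 0.27, edgeR adjusted p = 0.0298) and 1.67 (SE 0.29, adjusted p = 0.0218), so they were higher where Fgfr2 itself was at 6.07 and 0.465 CPM. When scaled to pan-epithelial genes they did not pass, at -0.14 for Esrp1 and 0.13 for Esrp2. Without Elf5-positive library 1, Elf5-positive library 2 or Elf5-negative library 2, the adjusted p was 0.0771, 0.0928 and 0.0732 for Esrp1 and 0.0627, 0.0605 and 0.0518 for Esrp2. Esrp1 also lost its call without Elf5-negative library 1 (0.0814), and Esrp2 without Elf5-negative library 3 (0.0553). Of 9 tested membrane partners 2 were lower (median -0.50), Ncam1 and Nrp1, against 3.79% of all genes tested. Ncam1, an adhesion molecule that binds FGF receptors, was at 12.8 and 6.31 CPM in Elf5-positive against 33.8 to 84.0 CPM in Elf5-negative libraries. Its log2 fold change was -2.64 (SE 0.47). The co-receptor Nrp1 was at 4.21 and 4.61 CPM in Elf5-positive against 35.8 to 62.5 CPM in Elf5-negative libraries (-3.46, SE 0.32). Ncam1 lost its call without Elf5-positive library 2 (adjusted p = 0.0887, edgeR) and without Elf5-negative library 3 (0.0664), and its log2 fold change was -3.23 without Elf5-positive library 1.

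**Figure D5:**
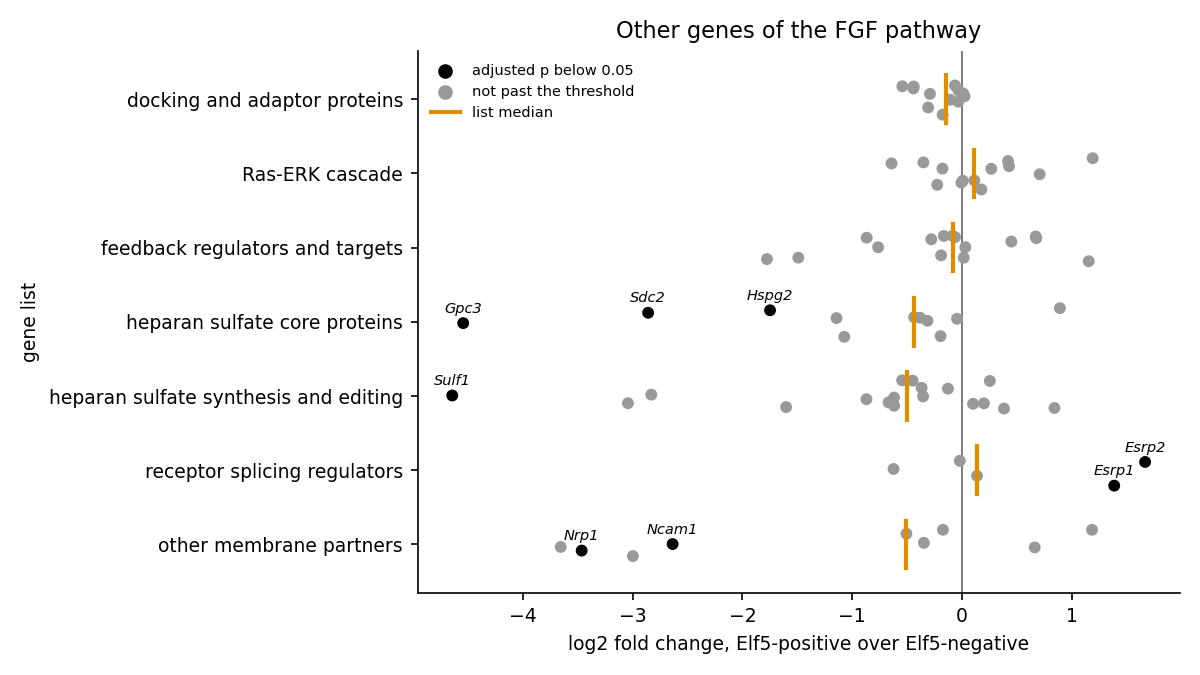
Log2 fold changes, Elf5-positive over Elf5-negative, of the tested genes of 7 lists of FGF pathway genes; black named points passed at an adjusted p below 0.05 (edgeR), grey points did not, and orange bars are list medians. The medians lie between -0.50 and 0.14, and the 8 genes that passed belong to the heparan sulfate, splicing and membrane partner lists; Esrp1, of the splicing list, lies at -0.14 when scaled to pan-epithelial genes.

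All directions above are relative to the whole library. When libraries were scaled to 18 pan-epithelial genes in place of TMM, the median over all genes tested moved to -1.52 on the log2 scale, edgeR called 14 genes higher and 12922 lower, and 22 of the 29 FGF genes were lower, Fgfr1 (log2 fold change -1.32), Fgfr3 (-1.45) and Fgfrl1 (-0.87) among them. Measured from that median, Fgfr1 lay at 0.20, Fgfrl1 at 0.65, Fgf2 at -3.12 and Fgf7 at -5.03, near their values with TMM factors. A change of scaling shifts every gene by nearly the same amount, so this nearness follows from the arithmetic and is no separate test.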

How the data were processed

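Gene-level estimated counts of 6 RNA-seq libraries were used as the authors deposited them. The build GRCm38.p5 and Salmon are named, per the submitters' processing notes. Strandedness, the release of the annotation, the version of Salmon and the step from transcripts to genes: not given in the sources used here. All values were whole numbers. Symbols, positions and merged exon lengths came from GENCODE M21 (52220 of 52325 IDs had a symbol), and promoters from RefSeq (GRCm38.p6), which held 28 of the 36 genes.

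The 2 Elf5-positive libraries were compared with the 4 Elf5-negative libraries in edgeR 4.0.16 (R 4.3.3; TMM factors, filterByExpr with a minimum of 10 counts, quasi-likelihood test, no covariate). P-values were adjusted by the Benjamini-Hochberg method over all 20684 genes tested, with a threshold of 0.05. The procedure was tested on simulated data. CPM are TMM-scaled and fold changes are Elf5-positive over Elf5-negative. Intervals and floors of 3 counts cover counting error only.

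Named with values in every library were genes that passed, all receptors, and genes averaging at least 5 CPM in either group; of each pathway list, genes that passed, up to the 5 of smallest p, and 8 set genes. The genes and lists were chosen with earlier results of these data known. Alternatives covered scaling, filtering, DESeq2 1.42.0, limma-voom (limma 3.58.1), the title number as a block, and left-out libraries. Spry3 and Anos1 were not matched by symbol and were not analysed here. The values of 1 gene of the pathway lists are not reported here.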

Additional observations from a re-analysis of the deposited data

Results flagged for a closer look

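In 54 checks for a library far from the others of its group, 2 values stood out among the 4 Elf5-negative libraries, and chance flags about 1 in 20 such groups. The Fgfr1 level over the Fgfr2 level, both per kb, was 85.7 and 2140 in the Elf5-positive libraries. It was 227 in Elf5-negative library 4, far above the 24.8 to 49.97 of the other 3 Elf5-negative libraries. Elf5-negative library 4 had the fewest counts, with 35 for Fgfr2.

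The summed level of skeletal muscle markers was 3.64 to 4.14 CPM in the Elf5-positive libraries. It was 249 CPM in Elf5-negative library 1, and 2.95 to 42.6 CPM in the other 3 Elf5-negative libraries. The part of this RNA in the FGF values was not tested. Without Elf5-negative libraries 1 and 2, Fgf2 and Flrt2 passed, and Fgf7 had a log2 fold change of -5.19 (adjusted p = 0.0507, edgeR), against -5.02 with all libraries.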

How the results depend on the processing

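The 6 FGF genes that fell kept a log2 fold change below 0 under each of the 17 other settings, and 0 FGF genes were called higher in any of them. Against 904 genes called (121 higher, 783 lower) and 6 FGF genes lower, scaling to pan-epithelial genes gave 12936 genes (14 higher, 12922 lower) and 22 FGF genes, no low-count filter 1604 genes, DESeq2 2136, the T2 libraries alone 0 genes and 0 FGF genes (at an unadjusted p under 0.05, 469 genes higher, 1463 lower and 8 FGF genes lower), and leaving out Elf5-negative libraries 1 and 2 gave 75 genes and 2 FGF genes. Leaving out 1 library gave 236 genes (without Elf5-positive library 2) to 944 genes and 5 to 6 FGF genes; without Elf5-negative library 1 it gave 274 genes, and without Elf5-negative library 3 381. Where 1 Elf5-positive library remained, it was assumed to vary like the other group.

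With the title number as a replicate block, 1263 genes (252 higher, 1011 lower) and 7 FGF genes, Fgf16 added, passed. With the T2 libraries alone and this replicate block, 1917 genes and 7 FGF genes, Fgf11 added, passed, the 6 with adjusted p of 0.00343 to 0.0151, and so did Spry2 (0.0285) and Etv5. In this last fit the libraries of a block share both the number and the code T2, neither of which is defined. The difference between the Elf5-positive libraries correlated at 0.737 with that between the T2 Elf5-negative libraries of the same numbers and at 0.0676 with that between the T1 libraries, across 20684 genes, which are not independent replicates.

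Directions turned in genes that did not pass, except Esrp1. With pan-epithelial scaling the log2 fold changes were -1.32 for Fgfr1, -1.45 for Fgfr3, -0.87 for Fgfrl1, -1.36 for Flrt3, -0.14 for Esrp1, -0.90 for Spry2, -0.83 for Dusp6, -1.56 for Etv4 and -0.36 for Etv5. Etv4 was at -0.023 with no filter. Fgfr4 was at 0.47 with limma-voom and 0.025 with the block. With the T2 libraries alone Fgfr4 was at 0.22, Spry1 at 0.064 and Etv4 at -0.22, and with the block added Fgfr3 was at -0.074, Fgfr4 at 0.33 and Etv4 at -0.23. Without Elf5-negative libraries 1 and 2, Fgfr3 was at -0.00044, Fgfr4 at 0.61 and Flrt3 at -0.12. Leaving out 1 library gave ranges of -0.26 to 0.25 for Etv4, -3.02 to 0.43 for Fgfbp1, -0.30 to 0.63 for Fgfr1, -0.66 to 0.65 for Fgfr3, -0.50 to 0.70 for Fgfr4, -0.32 to 0.63 for Flrt3, -0.44 to 0.16 for Frs2 and -0.99 to 0.32 for Spry1. The cause was not tested. At 9106660 counts in Elf5-negative library 4, a gene at 0 may have been at up to 0.308 CPM.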
